A study of Mus musculus with 6 samples.

Results

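The vomeronasal type 2 receptor genes (Vmn2r genes) were examined in dorsal root ganglia as a family whose known site of expression lies elsewhere. Every gene with a symbol made of Vmn2r and a number was taken if at least 1 probe set named it alone, and the probe set with the highest mean over the 6 arrays stood for each gene. This gave 109 of the 22180 genes measured, and the choice used symbols and mean signals, not a difference between groups. The ganglia were lumbar (L3 to L5) ganglia of naïve adult C57Bl/6 mice aged 2 mo, from lines that the methods describe as backcrossed to C57Bl/6J. The 3 HDAC4 Nav1.8 cKO samples carried floxed Hdac4 and a Cre driven by Nav1.8, which acts mostly in nociceptive neurons, so that other cells kept HDAC4. They were set against 3 wild-type samples, which were HDAC4 fl/fl, so that both groups carried the floxed gene. The labels do not name the animals behind the samples, so that every p value reflects the scatter of these 6 samples, which may be technical. The signal of a probe set depends on its probes as well as on the RNA, and the order of genes by signal is not an order of transcript amounts.

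V2Rs are class C G protein-coupled receptors with a large extracellular domain that binds the ligand. They are known from the basal sensory neurons of the vomeronasal organ, where they signal through the G protein Gαo and the channel Trpc2 and detect peptides and proteins such as exocrine gland-secreting peptides, major urinary proteins and MHC peptides. Such neurons express variable V2Rs together with a receptor of the family C group, Vmn2r1 to Vmn2r7. Dorsal root ganglia hold the cell bodies of somatosensory neurons with their satellite glia and Schwann cells.

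The tissue label was checked against defining markers. All 13 sensory neuron markers measured had mean signals between 9.10 and 12.32 on the log2 scale, including Scn10a, the gene of Nav1.8, at 12.32. The 3 satellite glia markers lay between 9.92 and 12.74. Hdac4 itself had 9.17, 9.14 and 9.21 in cKO ganglia, against 9.22, 9.49 and 9.19 in wild-type ganglia (log2 difference -0.13, SE 0.10), a difference within the spread of the samples. The paper reported reduced Hdac4 mRNA in cKO ganglia by RT-qPCR, the floxed exons included, and reduced protein by Western blot. The array signal of a single probe set in bulk ganglia is an unlike measure and does not test that loss. The 7 skeletal muscle markers averaged 8.48, 9.21 and 8.50 in cKO ganglia, against 7.25, 6.71 and 8.48 in wild-type ganglia, and the liver gene Alb reached 11.44 in wild-type replicate 3 with 5.36 to 5.78 in the other arrays. The arrays also differed in the X-inactivation RNA Xist, which had 11.60 to 11.74 in cKO replicate 1 and all 3 wild-type arrays but 6.67 in cKO replicate 2 and 5.95 in cKO replicate 3. As the ganglia were measured in bulk, fewer cells of a type and less RNA per cell cannot be told apart.

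Sequences around the annotated start are shown for the Vmn2r genes at both ends of the signal range and for Scn10a. The reason was the CpG content of the first window of Vmn2r29, which separated this brightest Vmn2r gene from the rest of its family. Each runs from 250 bases before to 50 bases after a start in RefSeq (GRCm38.p6), 5′ to 3′, with every CG dinucleotide in capitals. The CpG count of Vmn2r29 was singled out after its values had been seen.
Vmn2r29, first window, chr7:7278240-7278539, minus strand: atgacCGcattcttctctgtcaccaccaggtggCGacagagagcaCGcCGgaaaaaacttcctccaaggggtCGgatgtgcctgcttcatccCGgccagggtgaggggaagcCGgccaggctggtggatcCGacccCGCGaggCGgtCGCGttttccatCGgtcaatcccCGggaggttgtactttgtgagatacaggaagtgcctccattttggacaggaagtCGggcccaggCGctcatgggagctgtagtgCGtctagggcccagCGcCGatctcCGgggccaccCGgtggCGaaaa
Vmn2r29, second window, chr7:7247279-7247578, minus strand: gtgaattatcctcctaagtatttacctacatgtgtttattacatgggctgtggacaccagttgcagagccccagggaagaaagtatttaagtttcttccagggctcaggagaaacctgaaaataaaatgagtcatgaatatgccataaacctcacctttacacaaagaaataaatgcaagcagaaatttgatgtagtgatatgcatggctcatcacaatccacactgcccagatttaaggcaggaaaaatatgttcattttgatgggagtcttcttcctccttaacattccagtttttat
Vmn2r33, chr7:7566737-7567036, minus strand: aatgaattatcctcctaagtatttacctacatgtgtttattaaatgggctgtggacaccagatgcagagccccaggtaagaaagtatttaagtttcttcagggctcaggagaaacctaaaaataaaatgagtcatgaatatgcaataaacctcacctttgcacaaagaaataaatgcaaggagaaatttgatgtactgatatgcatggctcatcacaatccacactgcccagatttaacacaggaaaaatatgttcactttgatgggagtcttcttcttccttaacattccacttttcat
Vmn2r52, chr7:10176237-10176536, minus strand: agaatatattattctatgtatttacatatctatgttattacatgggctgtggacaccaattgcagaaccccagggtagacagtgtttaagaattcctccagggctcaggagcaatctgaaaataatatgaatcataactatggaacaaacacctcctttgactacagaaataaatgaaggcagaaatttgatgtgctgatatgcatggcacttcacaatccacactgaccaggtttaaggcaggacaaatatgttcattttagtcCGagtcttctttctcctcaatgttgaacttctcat
Scn10a, chr9:119718983-119719282, minus strand: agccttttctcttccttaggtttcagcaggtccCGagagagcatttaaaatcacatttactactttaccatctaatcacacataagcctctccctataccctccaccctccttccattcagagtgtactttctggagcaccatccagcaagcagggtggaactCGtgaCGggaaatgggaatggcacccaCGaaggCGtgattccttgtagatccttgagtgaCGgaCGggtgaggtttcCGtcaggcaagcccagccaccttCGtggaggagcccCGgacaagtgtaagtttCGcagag

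RefSeq gave such a window for 104 of the 109 Vmn2r genes, and the first window of each gene was counted. Their GC content had a median of 38.5%, against 52.7% over the windows of all 27025 genes listed, and 54.0% over 11 sensory neuron markers. The median number of CG dinucleotides was 1 for Vmn2r genes, 7 for all genes and 9 for the sensory neuron markers. No CG at all was found in 31 of the 104 Vmn2r windows (29.8%), against 5.78% of all windows. The first-type vomeronasal receptors (Vmn1r genes) were alike in this respect, with a median GC content of 35.7%, a median of 1 CG and 27.9% of 154 windows without any. The low CpG content was therefore not particular to Vmn2r genes.

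With the first window of each gene, 103 of the 104 Vmn2r genes had 4 or fewer CG dinucleotides, and the first window of Vmn2r29 held 23. Its GC content was 62.3%, and the next highest, that of Vmn2r55, was 45.3%. Among all genes, 21.6% of windows held 23 or more. RefSeq lists a second start for Vmn2r29, whose window had 38.3% GC and no CG, and in an ungapped comparison it shared 73.7% of its bases (221 of 300) with the window of Vmn2r33 and 69.7% with that of Vmn2r52. Vmn2r33 and Vmn2r52, near the top and at the bottom of the signal range, shared 64.3%. No gaps or shifts were allowed, and these windows are out of register with each other over part of their length. The shares of 73.7%, 69.7% and 64.3% therefore understate how alike these windows are. The 2 windows of Vmn2r29 shared 22.0%. The motif TATAAA, searched on both strands, was in 26 of the 104 Vmn2r windows (25.0%) and in 14.2% of all windows. Vmn1r genes had it in 61 of 154 windows (39.6%), so it was not particular to Vmn2r genes. The palindromic consensus of the EBF factors, known from olfactory and vomeronasal neurons, was likewise searched on both strands. It was in none of the Vmn2r or Vmn1r windows and in 0.914% of all windows. These matches describe letters only.

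**Figure D1:**
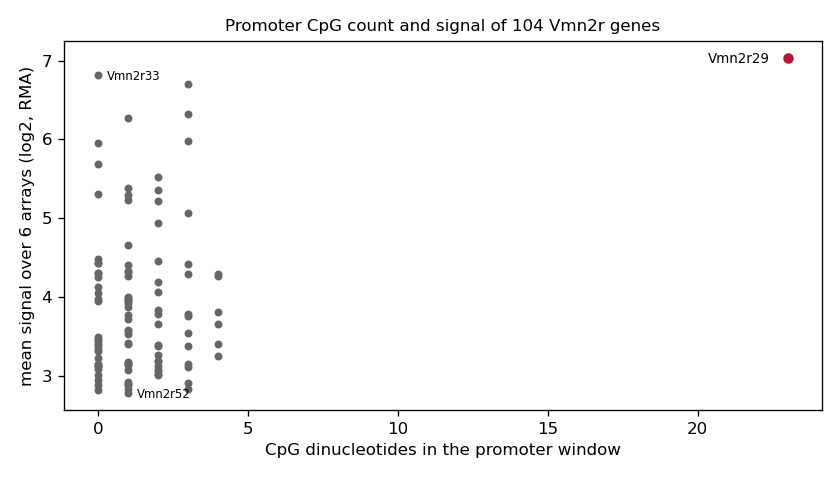
Number of CG dinucleotides in the 300 bases around the first RefSeq start (x axis) against mean log2 signal over 6 arrays (y axis) for the 104 Vmn2r genes with a window, with Vmn2r29 in red. All but 1 Vmn2r gene had 4 CG or fewer, and Vmn2r29 stood apart with 23 and the highest signal, 7.03. The second window of Vmn2r29, which had no CG, is not drawn.

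Correlations across the 104 Vmn2r genes used the first window of each gene. GC content and signal had a Pearson correlation of 0.40 and a Spearman correlation of 0.30, both 0.28 without Vmn2r29. The number of CG dinucleotides and signal had 0.30 (Pearson) and 0.07 (Spearman), and without Vmn2r29 these were 0.05 and 0.04. These are correlations across genes of the same 6 arrays, and genes are not independent replicates. Probe sequences were not used here.

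The Vmn2r genes lay near the bottom of the signal range. The mean signals of the 109 genes ran from 2.78 to 7.03 with a median of 3.76, against a median of 7.18 over all genes, whose range was 2.64 to 13.69. All 109 were below the median of all genes, and 101 were below its lower quartile of 5.61. Counted by level, 67 Vmn2r genes were below 4, 26 were between 4 and 5, 11 were between 5 and 6, and 5 were at 6 or above. The 95th percentile of the family was 5.97, a level that 6881 genes (31.0%) did not exceed. The signal of the highest Vmn2r gene was not exceeded by 10596 genes (47.8%), and 10 genes had a mean below the lowest. The values of Vmn2r12 (5.98) and Vmn2r87 (5.96) lay just on either side of the 95th percentile.

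**Figure D2:**
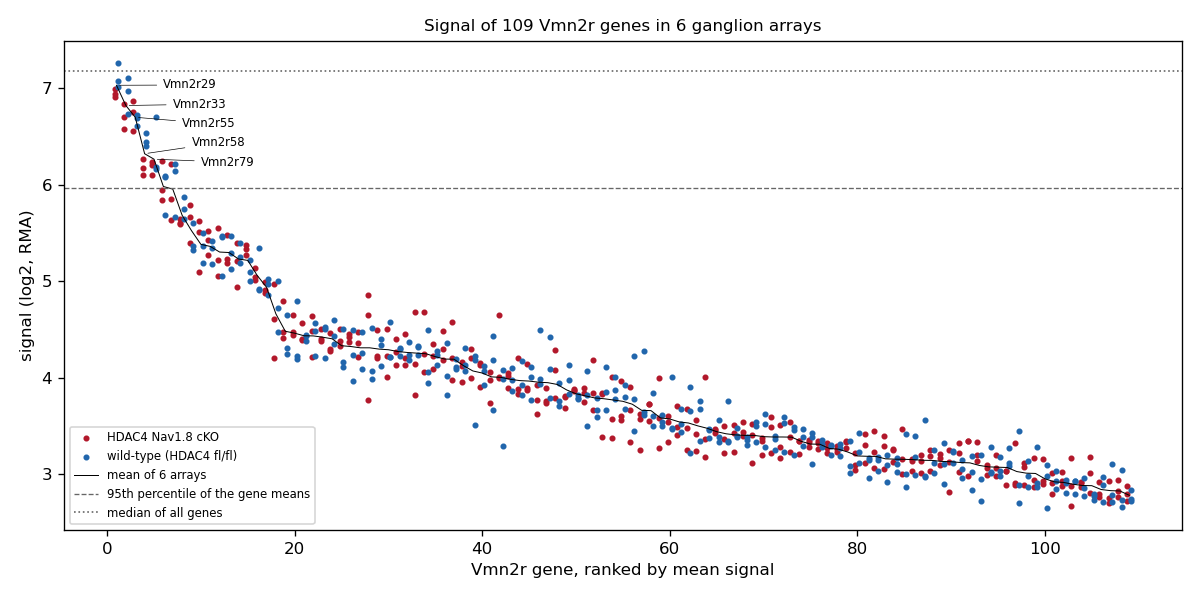
Log2 RMA signal of the 109 Vmn2r genes ranked by mean signal, with 3 HDAC4 Nav1.8 cKO arrays (red) left of 3 wild-type arrays (blue) at each gene, the mean of 6 arrays as a line, the 95th percentile of the means dashed and the median of all genes dotted. Most genes lie between 3 and 5, the lowest mean is 2.78 and the highest 7.03.

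At the dim end, Vmn2r52 had 2.79, 2.88 and 2.72 in cKO ganglia, against 2.72, 2.74 and 2.83 in wild-type ganglia. Vmn2r68 had 2.94, 2.82 and 2.76 in cKO ganglia, against 2.66, 2.73 and 3.04 in wild-type ganglia. Vmn2r103 had 2.93, 2.70 and 2.75 in cKO ganglia, against 2.78, 2.71 and 3.10 in wild-type ganglia. The groups overlapped in all 3 genes. Vmn2r37 had 2.76, 2.79 and 2.92 in cKO ganglia, against 2.97, 2.71 and 2.89 in wild-type ganglia. Vmn2r63 had 2.91, 2.92 and 2.87 in cKO ganglia, against 2.77, 2.86 and 2.96 in wild-type ganglia. Vmn2r72, the other of the 6 dimmest genes, is given with the comparison of genotypes. The 5 genes given here lay between 2.66 and 3.10 in every array.

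At the bright end, Vmn2r29 had 6.94, 6.99 and 6.91 in cKO ganglia, against 7.08, 7.02 and 7.26 in wild-type ganglia. Vmn2r33 had 6.70, 6.84 and 6.58 in cKO ganglia, against 6.97, 7.11 and 6.74 in wild-type ganglia. Vmn2r55 had 6.56, 6.87 and 6.76 in cKO ganglia, against 6.69, 6.61 and 6.72 in wild-type ganglia. Every array gave these 3 genes signals above the 95th percentile of the family, so their place was not set by 1 sample. Vmn2r79 had 6.24, 6.21 and 6.10 in cKO ganglia, against 6.70, 6.19 and 6.16 in wild-type ganglia. Vmn2r12 had 6.25, 5.95 and 5.84 in cKO ganglia, against 6.08, 5.69 and 6.09 in wild-type ganglia. Vmn2r87 had 5.85, 6.22 and 5.64 in cKO ganglia, against 6.22, 6.14 and 5.67 in wild-type ganglia. In Vmn2r79 the mean was raised by the first wild-type array, and the groups overlapped in all of the last 3 genes. Which RNA the brighter probe sets measured was not tested.

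The probe set chosen mattered for the genes that had several. Vmn2r113 had 4 probe sets with mean signals of 5.69, 4.10, 3.50 and 3.50, of which the last pair was identical in all arrays. Vmn2r122 had a pair at 4.22 and 3.16. Every other gene had a single one. A further 18 probe sets named several genes, up to 17, at least 1 of them a Vmn2r gene, and were left out by the rule. Their signals ran from 3.34 to 7.88 with a median of 5.51, and 15 of the 18 did not exceed the 95th percentile of the family. RefSeq lists 126 Vmn2r genes without a suffix, and 17 of them had no probe set of their own in the table, 14 of which were named on these shared probe sets. Of the 109 genes measured, 108 are protein coding in RefSeq, and Vmn2r125 is a pseudogene there.

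The family C receptors, which are co-expressed with other V2Rs in the vomeronasal organ, had mean signals between 3.12 and 5.22 with a median of 4.19, against 3.66 for the other 102 genes. Vmn2r1 averaged 4.31 ± 0.16 in cKO ganglia and 4.29 ± 0.15 in wild-type ganglia (SD, n = 3 each). Vmn2r2 averaged 3.71 ± 0.23 in cKO ganglia and 3.80 ± 0.12 in wild-type ganglia. Vmn2r3, the brightest of the 7, had 5.38, 5.33 and 5.27 in cKO ganglia, against 5.10, 5.22 and 5.00 in wild-type ganglia. The cKO values of Vmn2r3 all lay above the wild-type values, while those of Vmn2r1 and Vmn2r2 overlapped. Vmn2r4 had 3.34, 3.34 and 2.98 in cKO ganglia, against 3.02, 2.83 and 3.19 in wild-type ganglia. Vmn2r5 averaged 4.33 ± 0.32 in cKO ganglia and 4.17 ± 0.29 in wild-type ganglia. Vmn2r6 averaged 4.32 ± 0.15 in cKO ganglia and 4.07 ± 0.27 in wild-type ganglia. Vmn2r7 averaged 3.90 ± 0.26 in cKO ganglia and 3.68 ± 0.10 in wild-type ganglia, so that 6 of the 7 log2 differences were positive (-0.09 to 0.25, median 0.21), against 55 of the other 102 (median 0.00). Of the 7, only Vmn2r3 had an unadjusted limma p below 0.05. The 7 genes lie side by side on chromosome 3, which limits how far they count as separate observations.

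Of the receptors with a described ligand, Vmn2r116 binds the male pheromone ESP1. It had 3.20, 3.33 and 3.14 in cKO ganglia, against 2.95, 2.72 and 3.20 in wild-type ganglia. Vmn2r115, a receptor for the juvenile pheromone ESP22, had 3.30, 3.42 and 3.11 in cKO ganglia, against 3.17, 2.96 and 3.15 in wild-type ganglia. Both were among the dimmer genes and their groups overlapped. Vmn2r26, known for its response to MHC class I peptides, had 4.01, 4.50 and 4.23 in cKO ganglia, against 4.58, 4.21 and 4.21 in wild-type ganglia. Vmn2r65, which responds to a salivary protein, had 3.23, 3.51 and 3.43 in cKO ganglia, against 3.39, 3.48 and 3.40 in wild-type ganglia. Vmn2r88, the receptor for hemoglobin, had 3.62, 3.77 and 3.92 in cKO ganglia, against 3.93, 3.99 and 4.49 in wild-type ganglia. All cKO values of Vmn2r88 lay below the wild-type values, the nearest pair being 3.92 and 3.93, and an exact permutation test gave p = 0.1, the smallest that 3 arrays against 3 can give. The 5 genes had mean signals of 3.09 to 4.29 with a median of 3.41.

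By position, the Vmn2r genes with a mean of 5 or above were mostly on chromosome 7, while its median was not the highest. In RefSeq 40 of the 109 genes lie there, and 11 of these had a mean of 5 or above, against 2 of 30 on chromosome 17, 1 of 11 on chromosome 5, 1 of 8 on chromosome 10, 1 of 7 on chromosome 3 and none of the 8 on chromosome 6, the 3 on chromosome 4 and the 2 on chromosome 14. The median signals were 4.21 on chromosome 14, 4.19 on chromosome 3, 4.01 on chromosome 4, 3.96 on chromosome 7, 3.77 on chromosome 6, 3.49 on chromosome 17, 3.44 on chromosome 10 and 3.39 on chromosome 5. Along chromosome 7 the genes fell into 5 blocks separated by more than 1 Mb. The block of 4 genes from Vmn2r53 to Vmn2r56 had a median of 5.29, with a range of 3.81 to 6.70. The block of 12 genes from Vmn2r29 to Vmn2r52 held both the brightest and the dimmest gene of the family, and its median was 3.78. The 15 genes from Vmn2r65 to Vmn2r79 had a median of 3.31, and the 8 from Vmn2r57 to Vmn2r126 had 4.45. Neighbouring genes are related in sequence and are not independent observations.

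The Y-linked genes were low in the arrays with high Xist and high in the other arrays, on the same probe sets. The labels give no sex, and the methods describe groups matched for age and sex. The Xist and Y-linked signals were not matched between the groups, as both arrays with low Xist were cKO arrays. Whether the Y-linked transcripts were absent from the high-Xist arrays was not tested. In the 4 arrays with high Xist, the demethylase gene Kdm5d averaged 4.25 ± 0.21, the translation factor gene Eif2s3y 4.59 ± 0.17 and the demethylase gene Uty 4.50 ± 0.13 (SD, n = 4). In cKO replicates 2 and 3, Kdm5d had 8.03 and 7.91, Eif2s3y had 9.0 and 8.89, and Uty had 9.26 and 9.01. The difference between the 2 sets of arrays was 3.72 for Kdm5d, 4.36 for Eif2s3y and 4.64 for Uty on the log2 scale. Over these same 4 high-Xist arrays, 77 of the 109 Vmn2r genes (70.6%) had a mean below that of Kdm5d, and 91 (83.5%) were below that of Eif2s3y and, likewise, of Uty. Xist itself averaged 6.31 in the 2 arrays where it was low, above the means of 106 Vmn2r genes (97.2%) in these 2 arrays. These levels belong to other probe sets, so they set no limit for any single Vmn2r gene.

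**Figure D3:**
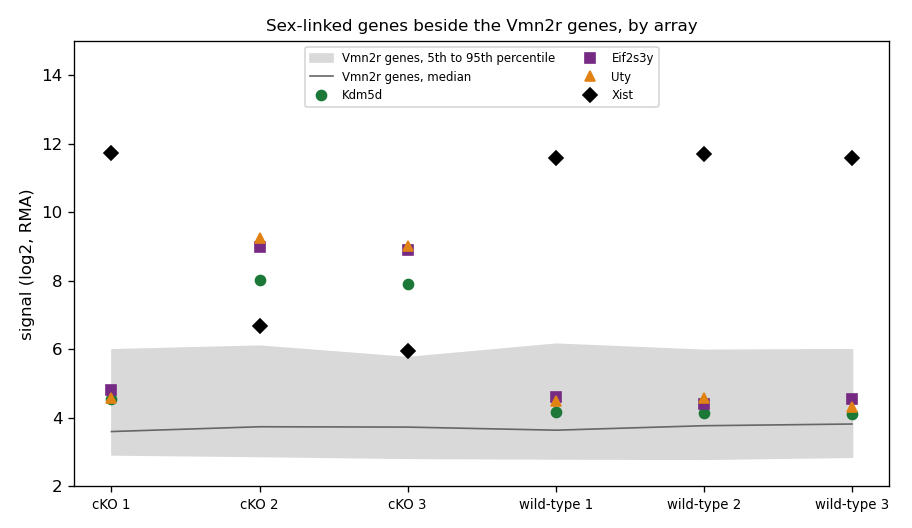
Log2 signal of Kdm5d, Eif2s3y, Uty and Xist in each array (x axis), over the median (line) and the 5th to 95th percentile (grey band) of the 109 Vmn2r genes in that array. In the 4 high-Xist arrays the Y-linked genes lie between 4.11 and 4.80, above most Vmn2r genes, and in the other 2 arrays between 7.91 and 9.26.

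Other chemoreceptor families, most of whose members are likewise known from sense organs other than the ganglia, had similar signals. The 176 Vmn1r genes had a median of 3.71, and 168 of them (95.5%) did not exceed 5.97. Among 1088 olfactory receptor genes the median was 4.00 and 1021 (93.8%) did not exceed that level. All 35 bitter taste receptors (Tas2r, median 3.80) and all 15 trace amine-associated receptors (Taar, median 4.08) were at or below it, as were 3 of 4 formyl peptide receptors (Fpr). The exception was Fpr2 at 6.17, which is not a receptor of sense organs alone. The 3 Vmn2r symbols with a pseudogene suffix had a median of 3.93, close to that of their coding relatives. Single genes of the large families stood above the highest Vmn2r gene, 4 among the Vmn1r genes, with Vmn1r233 at 10.34 and Vmn1r159 at 8.52, and 14 among the olfactory receptors, with Olfr1269 at 8.60 and Olfr1360 at 8.43.

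The other class C receptors, which belong to the same receptor class as V2Rs but act in many tissues, had a median of 6.46 over 20 genes. The GABA-B receptor subunits Gabbr2 (11.84) and Gabbr1 (11.77) were the highest, and 8 of the 20 exceeded every Vmn2r gene. The orphan receptors Gprc5d (4.57) and Gprc5a (5.47) were the lowest. A list of 24 genes held partners of vomeronasal receptors and markers of their neurons, with some olfactory neuron genes such as Gnal, Cnga2 and Cnga4. Of these 24, 9 exceeded every Vmn2r gene and 11 did not exceed 5.97. The 9 included B2m, the light chain of MHC class I (13.29), and Gnao1, the gene of Gαo (13.05), both of which are widely expressed outside the vomeronasal organ. The other 7 were the G protein genes Gnai2 (11.30), Gnal (10.78) and Gng8 (8.32), the transcription factor genes Meis2 (8.83) and Bcl11b (7.91), the chloride channel gene Ano1 (7.74) and the olfactory marker protein gene Omp (7.63). Trpc2, the channel of vomeronasal transduction, had 6.92, and the MHC class Ib genes H2-M10.5 (4.14) and H2-M1 (4.63), known from V2R neurons, were at the low end.

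Genes known from remote organs had a higher median than the chemoreceptor families. Of 30 genes known from milk, sperm, gut, liver and other tissues, 19 (63.3%) did not exceed 5.97 and the median was 5.51. The milk protein gene Csn2 had 3.95 and the airway gene Bpifa1 had 4.38. The sperm tail gene Odf1 had 11.58 and was the only one above every Vmn2r gene on its mean.

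**Figure D4:**
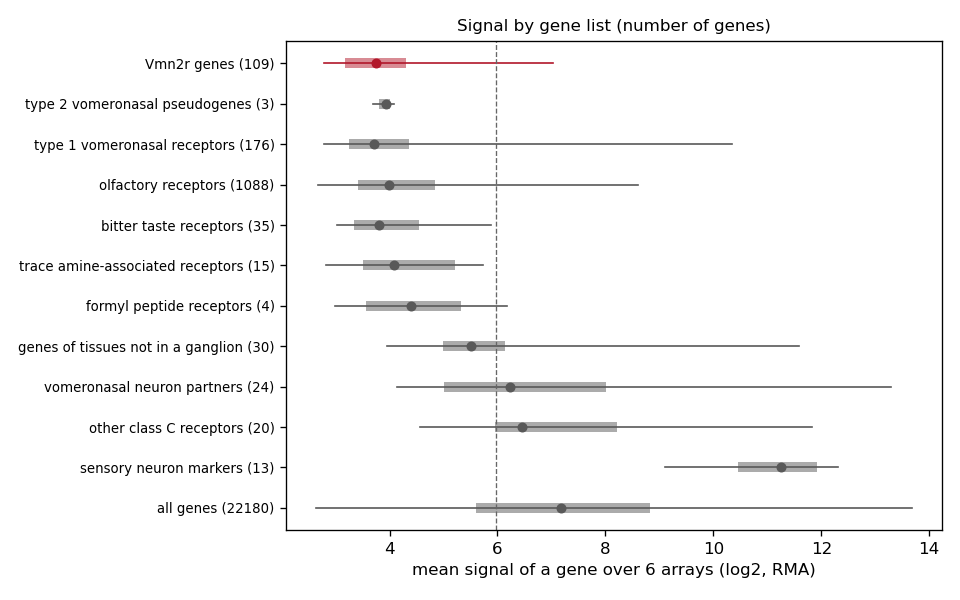
Mean log2 signal over 6 arrays of the genes in each list on the y axis, with the number measured in parentheses, the median as a point, the quartiles as a thick bar, the lowest to highest as a thin line and the 95th percentile of the Vmn2r genes dashed at 5.97. The upper quartiles of the chemoreceptor families lie left of the dashed line and the 13 sensory neuron markers, from 9.10 to 12.32, all lie right of it.

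The spread between arrays was wider for Vmn2r genes than for all genes together. The residual SD, which is the SD of the arrays about their group means, had a median of 0.163 on the log2 scale over Vmn2r genes and 0.107 over all genes. It was below 0.1 in 18 Vmn2r genes, between 0.1 and 0.2 in 59, between 0.2 and 0.3 in 21 and at 0.3 or above in 11. Against other genes of like signal, the Vmn2r median was the higher in 5 of 7 signal bins. Between 3 and 3.5 the medians were 0.139 for 37 Vmn2r genes and 0.142 for 622 other genes, between 3.5 and 4 they were 0.203 (20 genes) and 0.153 (817 genes), and between 4 and 4.5 they were 0.193 (24 genes) and 0.153 (914 genes). Between 5 and 6 they were 0.180 (11 genes) and 0.141 (3243 genes), and between 6 and 7.1 they were 0.118 (5 genes) and 0.124 (3840 genes). The bin below 3 had 0.124 for 10 Vmn2r genes and 0.117 for 119 others, and the bin between 4.5 and 5 had 0.201 for 2 Vmn2r genes and 0.149 for 1154 others.

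Vmn2r74 had the widest spread, with 3.77, 4.86 and 4.65 in cKO ganglia, against 4.52, 3.99 and 4.07 in wild-type ganglia (residual SD 0.456). Vmn2r110 had 4.65, 4.01 and 4.00 in cKO ganglia, against 3.29, 3.99 and 4.08 in wild-type ganglia (residual SD 0.404). In both genes 1 array of a group lay far from the other pair, in cKO replicate 1 for both and in wild-type replicate 1 for Vmn2r110. Vmn2r99 had 3.33, 3.67 and 3.90 in cKO ganglia, against 3.45, 3.78 and 4.22 in wild-type ganglia. Vmn2r57 had 4.97, 4.61 and 4.20 in cKO ganglia, against 4.72, 4.47 and 5.00 in wild-type ganglia. Vmn2r129 had 2.89, 3.32 and 2.91 in cKO ganglia, against 2.70, 2.89 and 3.45 in wild-type ganglia. The groups overlapped in all 5 of these genes. At the other extreme, Vmn2r102, named after its values had been seen, had 3.86, 3.88 and 3.87 in cKO ganglia, against 3.79, 3.82 and 3.78 in wild-type ganglia (residual SD 0.0163).

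The differences between Vmn2r genes were larger than those between arrays. The SD of the 109 mean signals was 0.957, which was 5.87 times the median residual SD, and the order of the genes was repeated between arrays, with Pearson correlations of 0.954 to 0.975 and Spearman correlations of 0.907 to 0.958 across the 109 genes for each pair of arrays. Over all genes that did not exceed 5.97, the Pearson correlations were 0.931 to 0.974. All arrays read the same probes, and genes are not independent replicates. The median Vmn2r signal was 3.60, 3.74 and 3.73 in the cKO arrays, against 3.64, 3.77 and 3.82 in the wild-type arrays. Wild-type replicate 3, the array with high Alb, was the highest of the 6 for 30 Vmn2r genes (27.5%), against 19.6% of all genes that did not exceed 5.97. The share was nearly as high in cKO replicate 2, whose Alb was low, with 28 Vmn2r genes (25.7%), against 18.2% of those genes. In all the other arrays the Vmn2r share was the lower, as in cKO replicate 1 with 24 Vmn2r genes (22.0%), against 29.5%. The part of the sample make-up in this was not tested.

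The comparison of genotypes asked whether loss of HDAC4, a transcriptional corepressor, in Nav1.8-expressing neurons was accompanied by a change of these genes. Both arrays with low Xist and high Y-linked signals were cKO arrays, so genotype and this difference cannot be fully told apart. None of the 109 Vmn2r genes passed limma's test at an adjusted p of 0.05, where the background was also 0% of the 22180 genes. At an unadjusted p of 0.05, 2 Vmn2r genes (1.83%) were called, against 5.48% of all genes. Of these, Vmn2r3 was higher in cKO ganglia (log2 difference 0.22, SE 0.08, limma adjusted p = 0.652, background for higher genes 2.67%). Vmn2r58 had 6.10, 6.27 and 6.18 in cKO ganglia, against 6.54, 6.40 and 6.45 in wild-type ganglia, and was the 1 called lower (log2 difference -0.28, SE 0.08, limma adjusted p = 0.640, background for lower genes 2.8%). The cKO and wild-type values of Vmn2r58 did not overlap either.

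The 3 cKO values lay all above or all below the wild-type values in 9 Vmn2r genes (8.26%), against 13.7% of all genes. Vmn2r3, Vmn2r72, Vmn2r82 and Vmn2r102 were the 4 in which the cKO values lay above, against 6.3% of all genes, and Vmn2r23, Vmn2r29, Vmn2r58, Vmn2r88 and Vmn2r97 were the 5 in which they lay below, against 7.4% of all genes. Vmn2r72 had 3.18, 2.80 and 3.01 in cKO ganglia, against 2.77, 2.79 and 2.73 in wild-type ganglia, the nearest pair being 2.80 and 2.79. Vmn2r23 had 3.81, 3.69 and 3.80 in cKO ganglia, against 3.83, 3.98 and 4.13 in wild-type ganglia. Vmn2r97 had 3.03, 3.03 and 2.89 in cKO ganglia, against 3.11, 3.08 and 3.27 in wild-type ganglia. In each of these 3 genes the groups were separated by less than the range within a group. Vmn2r61 and Vmn2r91, the remaining genes with the smallest p among those with a positive difference, had log2 differences of 0.25 (SE 0.14) and 0.17 (SE 0.10), and their groups overlapped.

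Over the family the log2 differences ran from -0.37 in Vmn2r88 to 0.43 in Vmn2r110, with 61 positive, 46 negative and 2 at 0. Their median was 0.01, against 0.00 over all genes and 0.02 over all genes that did not exceed 5.97. The median SE was 0.12 for Vmn2r genes and 0.09 for all genes. The 95% confidence interval of the difference lay within 0.5 of 0 in 79 Vmn2r genes (72.5%), against 87.3% of all genes, and within 1 of 0 in 108 of the 109. These intervals bound a change of signal.

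**Figure D5:**
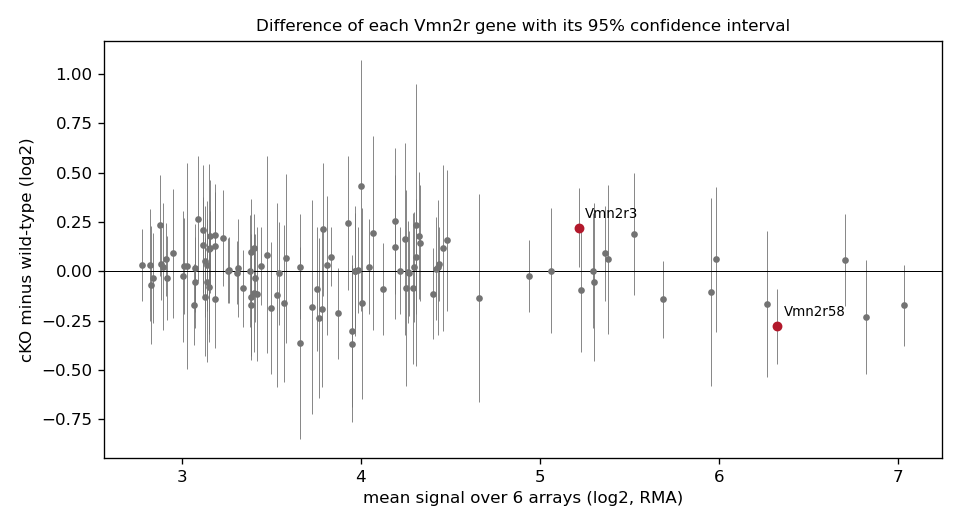
Log2 difference, HDAC4 Nav1.8 cKO minus wild-type (y axis), against mean log2 signal over 6 arrays (x axis) for the 109 Vmn2r genes, with 95% confidence intervals as bars and the 2 genes at an unadjusted limma p under 0.05 in red. The points run from -0.37 to 0.43 around a median of 0.01, and no gene passed the adjusted test.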

How the data were processed

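RNA of the 6 ganglion samples was labelled with an Ambion Whole Transcript kit and hybridised to Affymetrix Mouse Gene 2.0 ST arrays. The authors normalised the arrays with RMA (oligo package) and used limma, with versions not given in the sources used here. The deposited values are log2 signals for 41345 probe sets, with no detection calls, so signal over background is unknown. The platform annotation names 1 gene for 23521 probe sets. Array probe coordinates were not used, and promoter windows came from RefSeq (GRCm38.p6).

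All probe sets were fitted with group as the only term in limma 3.58.1 (R 4.3.3, statmod 1.5.0, default lmFit and eBayes, prior degrees of freedom 2.51), and 2-sided p values were adjusted over all of them (Benjamini-Hochberg). The fit was tested on simulated data. Confidence intervals are 95%. Exact permutation tests used the 20 arrangements of the arrays, with a smallest p of 0.1. Precision is limited by the number of arrays.

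The genes and lists were chosen with earlier results of these data known. Named genes were the 8 highest and 6 lowest by mean signal, the 6 of each direction with the smallest p, the 5 with the widest spread, family C, genes with a described ligand and, in other lists, the extremes. Alternatives were cyclic loess, trended and robust moderation, array weights, filters on probe sets, the mean of all probe sets of a gene, the replicate number as a block, a 90th percentile, an adjusted p threshold of 0.1, the high-Xist arrays alone and leaving out each array. Over all probe sets, same-numbered samples did not deviate together (correlations -0.04, -0.08 and -0.08). Over the Vmn2r genes the same pairs had -0.03, 0.10 and 0.15, with -0.17 to 0.15 over all pairs of numbers.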

Additional observations from a re-analysis of the deposited data

How the results depend on the processing

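No Vmn2r gene passed the adjusted limma test under any alternative, a threshold of 0.1 included (smallest adjusted p 0.382, limma, high-Xist arrays alone, which left 1 cKO array whose spread was taken from the wild-type arrays). At unadjusted p under 0.05, where 2 Vmn2r genes were called, there were 4 with cyclic loess (3.67%, against 5.79% of all genes), 1 with trended and robust moderation (0.917%, against 6.63%), 3 with array weights (2.75%, against 7.80%), 4 with only single-symbol probe sets (3.67%, against 7.80%), 0 of the 3 genes left by the filter at the median signal (against 8.17%), and 8 in the high-Xist arrays alone (7.34%, against 6.96% of all genes). With the replicate number as a block, 4 were called (3.67%, against 3.30% of all genes), though the labels name no pairing by number. Leaving out 1 array gave 2 to 8, with 6 without cKO replicate 3 (5.50%, against 4.60% of all genes), 7 without wild-type replicate 1 (6.42%, against 3.81%) and 8 without wild-type replicate 3 (7.34%, against 3.55%). In these 3 settings, with the block and in the high-Xist arrays, the Vmn2r share was above that of all genes, and with all 6 arrays it was below (1.83%, against 5.48%).

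Vmn2r genes whose groups did not overlap numbered 9, and 16 to 21 on leaving out 1 array, where 21.1% to 31.8% of all genes did not overlap. In the high-Xist arrays alone they numbered 57 (52.3%, against 55.2%). Both changes follow from fewer samples. The 90th percentile of the Vmn2r signals was 5.315 in place of 5.97, and 4607 genes did not exceed it in place of 6881. The median residual SD was 0.139 to 0.161 on leaving out 1 array, lowest without wild-type replicate 3. The 12 genes named for their differences kept their direction in all 158 alternatives. They had been picked for their small p in these same arrays, and several settings leave the log2 difference unchanged by design. Where the groups do not overlap, leaving out an array cannot reverse the direction, so the kept direction tests little. Of the family's summary values, 67 of 85 alternatives stayed within 1 SD between arrays or, for counts, within 1.5 times. Without detection calls, an absent transcript cannot be told from a rare one.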

Other observations

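The MHC class Ib gene H2-M10.3, whose product accompanies V2Rs at the surface of vomeronasal neurons, had 4.91, 5.39 and 5.02 in cKO ganglia, against 4.71, 4.60 and 4.51 in wild-type ganglia. The groups did not overlap (log2 difference 0.50, SE 0.14), as in 6.3% of all genes in this direction, and limma's adjusted p was 0.640. H2-M10.3 was named after its values had been seen, and the 7 other H2-M genes measured had log2 differences of -0.27 (H2-M9) to 0.17 (H2-M1). Among olfactory receptor genes, 48 of 1088 were higher (4.41%, against 2.67% of all genes) and 12 lower (1.10%, against 2.8%) in cKO ganglia at an unadjusted limma p of 0.05. Vmn1r genes had a like tilt, with 9 of 176 higher (5.11%) and 2 lower (1.14%), and Vmn2r genes had 1 of 109 each way. The median log2 difference was 0.03 over olfactory receptor genes and 0.02 over Vmn1r genes. It was also 0.02 over all genes that did not exceed 5.97, against 0.00 over all genes. Whether the tilt belongs to dim genes in general was not tested. None of the genes tested passed the adjusted test.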
